A study of Mus musculus with 18 samples.

Results

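The genes described here encode proteins of the PI3K, AKT and MTOR pathway, and their RNA was recovered with Argonaute 2 (Ago2) from mouse colonic epithelium. The 7 genes were Insr, Irs2, Pik3r1, Phlpp2, Foxo3, Ddit4 and Rps6kb1. Their members are all merged Ago2 peaks that the authors' peak annotation assigns to them, which gave 28 of 5554 merged peaks, or of 5448 peaks in the annotation. The selection rule used the gene assignment alone and no measured value, though the genes were picked with earlier results of these data known. Per gene there were 8 peaks for Foxo3, 5 for Irs2, 5 for Phlpp2, 4 for Ddit4, 3 for Pik3r1, 2 for Insr and 1 for Rps6kb1.

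Insulin and related growth factors bind receptor kinases such as the insulin receptor (Insr), which phosphorylate adaptors such as Irs2. The adaptors recruit PI3K, a lipid kinase made of a catalytic subunit and a regulatory subunit such as p85 alpha (Pik3r1), and its lipid product activates the kinase AKT. The phosphatase Phlpp2 removes an activating phosphate from AKT, AKT keeps the transcription factor Foxo3 out of the nucleus, Ddit4 (REDD1) restrains MTOR complex 1, and Rps6kb1 (S6 kinase) is phosphorylated by that complex. MicroRNAs (miRNAs) loaded into Ago2 pair through their seed, bases 2 to 8, mostly with sites in 3′ UTRs, and lower the stability and translation of the bound RNA. K-Ras can activate PI3K directly, which makes the pathway relevant to an epithelium with an oncogenic K-Ras allele.

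The libraries came from HEAP, a CLIP-type assay in which Ago2 carrying a Halo tag is captured after UV crosslinking and the RNA it held is sequenced. The G12D mice were Halo-Ago2/+, Fabp-Cre/+ and K-Ras-G12D/+, and the WT mice were Halo-Ago2/+ and Fabp-Cre/+ with wild-type K-Ras, so both genotypes carried the tagged Ago2 and the Cre transgene. All were C57BL/6 mice of 8 to 12 weeks whose distal colon was scraped with a blade to enrich for epithelium. There were 3 pulldown mRNA libraries and 3 miRNA libraries per genotype, and 6 input control libraries were not analysed here. The labels name neither the cells in which Cre was active nor a separate mouse for each library. The p-values therefore measure only library-to-library spread, which may in part be technical. Because inputs were not used, a change of a peak cannot be told apart from a change of its transcript, nor can fewer cells of a type be told apart from less RNA per cell.

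Depth differed widely between the pulldown libraries. Over merged peaks there were 148927, 723937 and 247358 reads in the G12D libraries, against 100978, 54401 and 148770 in the WT libraries. The deposited values are reads divided by 1 factor per library, called normalized reads below, and 1 read was worth between 0.206 and 1.09 normalized reads in G12D libraries and between 1.29 and 2.90 in WT libraries. Counting error was therefore larger in WT, and largest in WT library 2, where 12 of the 28 member peaks had no read. No member peak was at 0 in a G12D library, against 5, 12 and 5 peaks in the WT libraries. As a tissue check, 17 of 19 colonic epithelium markers had a merged peak, Cdx1 and Cdx2 being the ones without. Markers of smooth muscle and stroma (0 of 12), of blood cells and endothelium (0 of 12) and of enteric neurons and glia (0 of 7) had none. The epithelial markers summed to between 6361 and 8091 normalized reads in G12D libraries and between 3420 and 4802 in WT libraries, and their part in the results below was not tested.

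The mature miRNAs whose seed matches the annotation lists in the peaks that carry the results are shown 5′ to 3′, with the seed in capitals and their position in GRCm38.p6, from RefSeq. Those of the miR-200 and miR-141 families are set beside each other because Pik3r1, Rps6kb1, Foxo3 and Phlpp2 list them, and let-7 beside miR-196 because they share part of the seed.
miR-200b-3p: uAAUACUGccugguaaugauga (chr4:156055685-156055706, minus strand)
miR-141-3p: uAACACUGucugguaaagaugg (chr6:124717917-124717938, minus strand)
let-7b-5p: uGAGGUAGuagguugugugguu (chr15:85707325-85707346, plus strand)
miR-196b-5p: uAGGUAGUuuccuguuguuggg (chr6:52230129-52230150, minus strand)
miR-22-3p: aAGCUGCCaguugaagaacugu (chr11:75463772-75463793, plus strand)
miR-27a-3p: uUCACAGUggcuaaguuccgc (chr8:84208727-84208747, plus strand)
miR-146b-5p: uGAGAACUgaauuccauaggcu (chr19:46342790-46342811, plus strand)
miR-29a-3p: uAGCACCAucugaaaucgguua (chr6:31062673-31062694, minus strand)
miR-16-5p: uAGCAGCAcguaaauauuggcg (chr3:69009918-69009939, plus strand)
The seeds of miR-200b-3p and miR-141-3p differ at 1 position. The seeds of let-7b-5p and miR-196b-5p share a run of 6 bases, and each of the 3 member peaks with a let-7 8-mer also lists a miR-196 6-mer.

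Of the 28 member peaks 22 lay in a 3′ UTR (78.6%, against 54.7% of all annotated peaks) and 6 in an exon by the authors' annotation. A match of 7 or more bases to a miRNA seed family was listed for 20 peaks (71.4%, against 71.7% of all annotated peaks), and the longest type, the 8-mer, for 9 peaks (32.1%, against 30% of all). Only a 6-mer was listed for 3 peaks, and no match for 5 (17.9%, against 13.3% of all). Families matched in more than 1 gene were let-7 (Insr, Irs2, Phlpp2 and Pik3r1), miR-200/miR-429 (Foxo3, Pik3r1 and Rps6kb1), miR-15/16 (Insr, Phlpp2 and Pik3r1), miR-141 (Phlpp2 and Pik3r1) and miR-484 (Foxo3 and Irs2). The authors' peak lists per genotype held 8 of the 28 in both lists, 20 in the G12D list alone and 0 in the WT list alone, beside 834, 4275 and 445 of all 5554 merged peaks.

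Ago2 reads in the pathway's peaks did not move one way. Together the 28 peaks held 539.8, 798 and 669 normalized reads in the G12D libraries, against 639, 420.2 and 836 in the WT libraries. These totals overlapped, but only through 1 peak. Pik3r1 peak 1 alone held 46.9, 80.7 and 70.4 in G12D libraries, against 239.9, 217 and 428 in WT libraries. Without that peak every G12D total would exceed every WT total. The 3 G12D libraries all lay above the 3 WT libraries in 11 peaks and all below them in 2, and the groups overlapped in 15. Over all 5554 merged peaks 50.1% lay wholly above and 12.1% wholly below.

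A test was run on log2(normalized reads + 1) with limma over the 4438 peaks whose mean reached 5 normalized reads, and a peak was called at a Benjamini-Hochberg adjusted p under 0.05. Of the 22 member peaks that entered, 6 were called higher in G12D libraries (27.3%) and 1 lower (4.55%). Of all peaks tested 36.2% were called higher and 12.7% lower, 48.9% in all. The difference between the members' share and the background was not tested. With the same total per library 10 member peaks were called higher, beside 1966 of 4587 peaks. Without G12D library 2 there were 2 member peaks called higher, beside 867 of 4083 peaks. Without G12D library 3 there were 3, beside 873 of 4103 peaks. Of the 22, 6 entered with a WT mean under 5, 3 of which were called higher, and 0 entered with a G12D mean under 5. These 3 were Insr peak 2, Foxo3 peak 7 and Rps6kb1 peak 1, and their p-values are no support apart from the counts. The median log2 fold change was 0.94 over the 22 members and 1.05 over all peaks tested, and 9 of the 22 lay above the median of all peaks.

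The split between directions depended on the scaling. On the deposited scale 1607 peaks were called higher and 563 lower, 74.1% of the calls being higher. After quantile normalization 843 were higher and 839 lower (50.1%), with a median log2 fold change of 0.069 over all peaks. With edgeR and TMM factors on the recovered reads 1093 were higher and 895 lower (55%, median 0.47), and with DESeq2 1130 and 771 (59.4%, median 0.66). Fold changes of member peaks below are therefore also given relative to the median of all peaks tested.

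**Figure D1:**
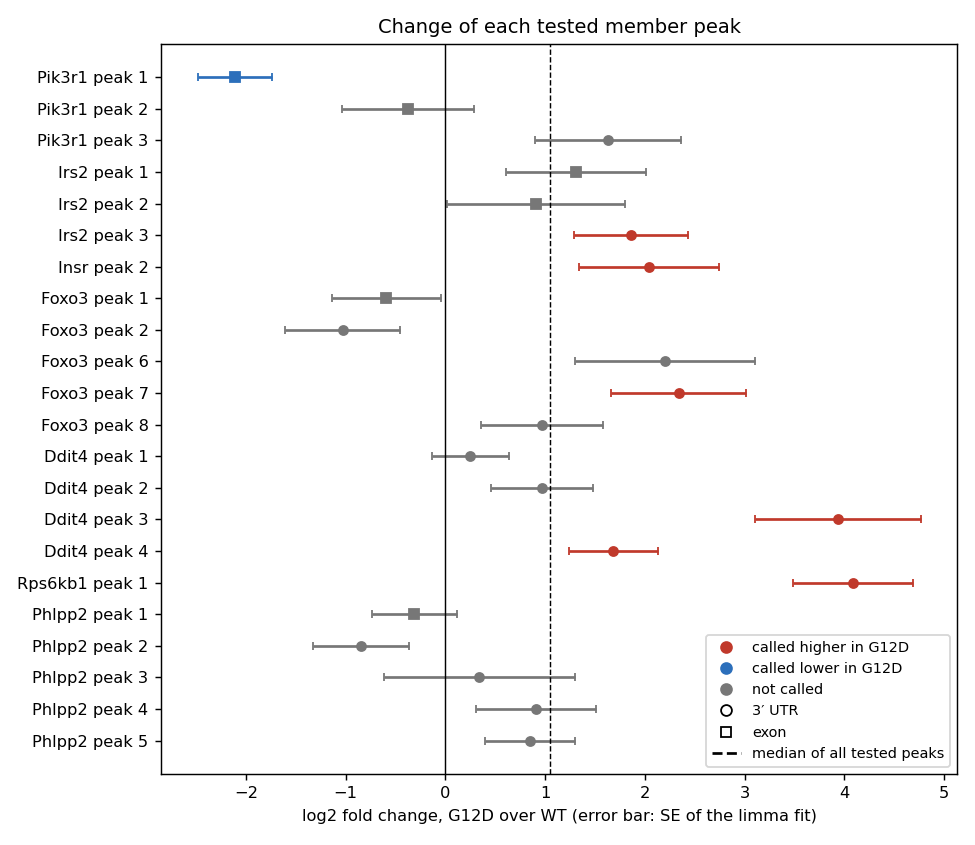
Log2 fold change (G12D over WT, x axis) of each of the 22 tested member peaks with the standard error of the limma fit as bars; squares are exon peaks, circles 3′ UTR peaks, red and blue mark peaks called higher and lower, and the dashed line is the median of all 4438 tested peaks at 1.05. The 6 red peaks lie in 3′ UTRs of 5 genes, the blue peak is Pik3r1 peak 1, and the place of Rps6kb1, at 0 in WT, depends on the pseudocount.

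By annotation, 6 of 16 tested 3′ UTR members were called higher and 0 lower, beside 37.7% and 6.81% of all tested 3′ UTR peaks; edgeR called 2 of the 16 lower. Of the 6 tested exon members 0 were called higher and 1 lower, beside 28.7% and 18.6% of all tested exon peaks. By list, 0 of the 8 members found in both genotype lists were called higher and 1 lower, beside 13.9% and 25.6% of all such peaks. Of the 14 tested members found in the G12D list alone 6 were called higher and 0 lower, beside 47% and 0.663%. Of all tested peaks in the WT list alone 0.676% were called higher and 74.3% lower. The lists come from these same pulldown libraries, so the split by list is no separate support for a difference. Where limma called 0, the count at an unadjusted p under 0.05 was 0 as well; DESeq2 also called 0, and edgeR called 1 of the 14 lower. The authors' deposited table held an adjusted p under 0.05 for 7 of the 28 member peaks as higher and 1 as lower, beside 37.9% and 11.6% of the 5504 peaks with an adjusted p there. That table shared 6 of the 7 limma calls, the exception being Insr peak 2, and also gave Irs2 peak 5 and Foxo3 peak 5 as higher.

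**Figure D2:**
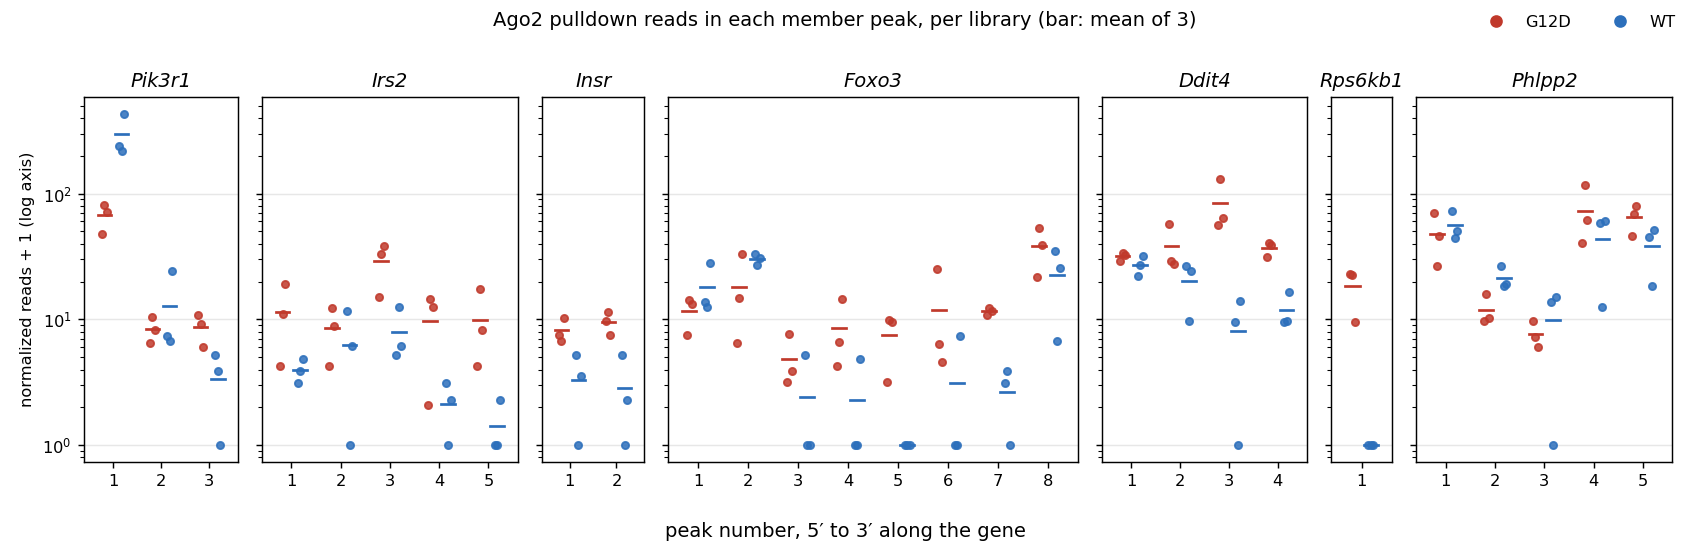
Normalized reads plus 1 (log y axis) of each of the 28 member peaks in each pulldown library, with peaks numbered 5′ to 3′ within a gene; red points are the 3 G12D libraries, blue points the 3 WT libraries, and bars their means. Points at 1 are libraries with no read, all of which are WT, and Pik3r1 peak 1 is the peak with the highest WT level.

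Among receptors and adaptors, 1 3′ UTR peak of Insr and 1 of Irs2 were called higher in G12D libraries, and their other 3′ UTR peaks were below the filter. Insr, the insulin receptor, had 2 peaks, both in the 3′ UTR and both near the detection limit. Insr peak 2 (chr8:3153173-3153226, minus strand) lists an 8-mer for let-7 and a 7-mer for miR-151-3p. It had 8.72, 10.5 and 6.46 normalized reads in G12D libraries, against 4.25, 0 and 1.29 in WT libraries. All G12D values exceeded the WT values, but the WT values rested on 3 reads in total, against 68 reads in G12D libraries. The ratio of read rates was 5.04, with a 95% counting interval of 1.65 to 25.1. With a WT mean of 1.84, under 5, Insr peak 2 passed the filter only through the G12D libraries. Its p-value and the alternatives are therefore no support apart from the counts. The change on the log2 scale was 2.04 ± 0.70 (SE, limma adjusted p = 0.0314), which is 0.99 above the median of all peaks. This call was lost in 6 of 13 alternatives, among them edgeR (1.67, adjusted p = 0.15), DESeq2 (1.88, adjusted p = 0.142), quantile normalization (0.21, adjusted p = 0.817) and the fits without WT library 2 (1.44, adjusted p = 0.0725) or WT library 3 (2.04, adjusted p = 0.0625), and its adjusted p ran from 0.010 to 0.817 over the alternatives. Insr peak 1 (chr8:3154286-3154348), with a 7-mer for miR-15/16, was below the filter at 7.22 ± 1.87 in G12D and 2.28 ± 2.14 normalized reads in WT libraries (SD, n = 3 each).

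Irs2, the adaptor that links insulin and IGF receptors to PI3K, had 5 peaks, 2 in an exon and 3 in the 3′ UTR. The highest was peak 3 (chr8:10986495-10986552, minus strand, 3′ UTR), with an 8-mer for let-7 and a 7-mer for miR-10. It had 14.2, 32.4 and 37.3 normalized reads in G12D libraries, against 4.25, 11.6 and 5.16 in WT libraries, so the groups did not overlap. It was called higher with a log2 fold change of 1.86 ± 0.58 (SE; adjusted p = 0.0196 with limma), 0.81 above the median of all peaks. Without G12D library 2 it was 1.70 (adjusted p = 0.105), without G12D library 3 it was 1.60 (adjusted p = 0.117), and after quantile normalization 1.15 (adjusted p = 0.0843), the range over 17 alternatives being 0.00645 to 0.117.

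The other Irs2 peaks were weaker. The exon peaks 1 (chr8:11005248-11005315) and 2 (chr8:11004468-11004522) had log2 fold changes of 1.31 (adjusted p = 0.138) and 0.91 (adjusted p = 0.407) and were not called. Peak 2, which lists 7-mers for miR-205 and miR-26, turned negative after quantile normalization (-0.64) and without WT library 2 (-0.12). The 3′ UTR peaks 4 and 5 were below the filter. Peak 4 (chr8:10986373-10986434), with 7-mers for miR-210 and miR-378, held 82 reads in G12D and 2 in WT libraries. The rate ratio of the pooled reads was 9.12, with a 95% counting interval of 2.45 to 76.6. Of the 82 reads 65 came from G12D library 2. Its groups overlapped, at 1.09, 13.4 and 11.5 normalized reads in G12D libraries, against 2.12, 0 and 1.29 in WT libraries. Peak 5 (chr8:10984754-10984829), with no seed match listed, lay 73 bases from the end of the RefSeq gene. It held 92 reads in G12D libraries, 79 of them in library 2, and 1 in WT libraries. The rate ratio was 20.5, with an interval of 3.58 to 817. Summed over its peaks, Irs2 had 25.1, 83.6 and 81.9 normalized reads in G12D libraries, against 19.1, 14.5 and 16.8 in WT libraries. The sum was called higher (log2 fold change 1.68 ± 0.49, SE, limma adjusted p = 0.0146), a call lost without G12D library 2 (1.39, adjusted p = 0.0927), without G12D library 3 (1.41, adjusted p = 0.0905), without both libraries numbered 2 (1.30, adjusted p = 0.12) and after quantile normalization (0.45, adjusted p = 0.456), with a lowest adjusted p of 0.00473 over the alternatives.

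Pik3r1, the p85 alpha regulatory subunit, was the member with fewer Ago2 reads in G12D libraries. Its peak 1 (chr13:101701812-101701863, minus strand, exon) lists 7-mers for miR-141, miR-200/miR-429 and let-7. It had 46.9, 80.7 and 70.4 normalized reads in G12D libraries, against 239.9, 217 and 428 in WT libraries. Every WT library held more than every G12D library, and this was the highest WT level of any member peak. The means were 66.0 ± 17.3 in G12D and 295 ± 116 in WT (SD, n = 3 each), resting on 532 and 520 reads. The log2 fold change was -2.11 ± 0.37 (SE, limma adjusted p = 0.00106), or -3.16 relative to the median of all peaks. The call held in all 18 alternatives, with values between -2.70 and -1.81.

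The other Pik3r1 peaks were minor ones. Peak 2 (chr13:101687151-101687207, exon), with an 8-mer for miR-200/miR-429, had 5.45, 9.49 and 7.18 normalized reads in G12D libraries, against 6.37, 5.80 and 23.2 in WT libraries, and was not called (log2 fold change -0.38, limma adjusted p = 0.646; adjusted p between 0.0468 and 0.843 over the alternatives). Peak 3 (chr13:101681079-101681142), the only one in its 3′ UTR, lists an 8-mer for miR-15/16 and 7-mers for miR-423-3p and miR-103/miR-107. It had 9.82, 8.25 and 5.03 normalized reads in G12D libraries, against 4.25, 2.90 and 0 in WT libraries, and missed the threshold (log2 fold change 1.63, limma adjusted p = 0.0823), though it passed without WT library 1 (2.10, adjusted p = 0.0422, the lowest of 13 alternatives, the highest being 0.258). The gene's sum followed peak 1, with 81.1 ± 18.2 normalized reads in G12D and 309 ± 123.5 in WT libraries (SD, n = 3 each; log2 fold change -1.87 ± 0.33, SE, limma adjusted p = 0.00102).

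Phlpp2, a phosphatase that acts on AKT, had 5 peaks and limma called 0, with 0 at an unadjusted p under 0.05, 0 by DESeq2 and 1 by edgeR. In the 3′ UTR, peak 4 (chr8:109941479-109941533, plus strand) was the highest, with only a 6-mer for miR-130/miR-301. It had 39.3, 116 and 61.0 normalized reads in G12D libraries, against 57.3, 11.6 and 59.3 in WT libraries, so the groups overlapped, with the deepest library highest and the shallowest lowest. Its log2 fold change was 0.91 ± 0.61 (SE, limma adjusted p = 0.227), and it was -0.25 without both libraries numbered 2. Peak 5 (chr8:109941557-109941599), 23 bases downstream, had 44.7, 67.7 and 78.3 in G12D libraries, against 44.6, 17.4 and 50.3 in WT libraries, and overlapped too (0.84, limma adjusted p = 0.138; between 0.0475 and 0.757 over the alternatives).

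Phlpp2 peak 2 (chr8:109941045-109941113), with an 8-mer for miR-141, ran the other way. It had 8.72, 14.9 and 9.34 normalized reads in G12D libraries, against 25.5, 17.4 and 18 in WT libraries, all WT values being above all G12D values. The log2 fold change was -0.85 ± 0.48 (SE, limma adjusted p = 0.159). It was called lower after quantile normalization (-1.47, adjusted p = 0.0206) and with edgeR (-1.35, adjusted p = 0.0444), and was 0.10 in the thinned reads, with an adjusted p of up to 0.922 over the alternatives. The exon peak 1 (chr8:109909100-109909150), with an 8-mer for let-7, had 68.7, 25.4 and 45.2 in G12D libraries, against 72.2, 43.5 and 49.0 in WT libraries (-0.31, limma adjusted p = 0.554). Peak 3 (chr8:109941199-109941294), with a 7-mer for miR-15/16, averaged 6.65 ± 1.89 in G12D and 8.97 ± 7.81 in WT libraries (SD, n = 3 each), and its sign changed with the processing. The sum over Phlpp2 was 199.8 ± 30.1 in G12D and 164 ± 65.4 in WT libraries (log2 fold change 0.36 ± 0.34, SE, limma adjusted p = 0.391), and it was negative with edgeR (-0.16) and DESeq2 (-0.10).

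Foxo3, the transcription factor that AKT inactivates, had the most peaks, 7 in the 3′ UTR and 1 in an exon, all on the minus strand of chromosome 10. Peak 8 (chr10:42184991-42185048), with 7-mers for miR-29 and miR-484, was the highest. It had 20.7, 52.6 and 38.1 normalized reads in G12D libraries, against 34.0, 5.80 and 24.5 in WT libraries, and was not called (log2 fold change 0.97 ± 0.61, SE, limma adjusted p = 0.203; -0.035 without both libraries numbered 2). Peak 7 (chr10:42185209-42185261) was the Foxo3 peak called higher, and it lists only a 6-mer for miR-7. It had 9.82, 11.3 and 10.8 normalized reads in G12D libraries, against 2.12, 2.90 and 0 in WT libraries. The WT values were 1, 1 and 0 reads, whereas the G12D libraries held 79 reads in total, a rate ratio of 8.79 with a 95% counting interval of 2.35 to 73.8. With a WT mean of 1.67, under the filter's 5, peak 7 entered only through the G12D libraries. P-values for this peak are therefore no support apart from the counts. The log2 fold change was 2.34 ± 0.68 (SE, limma adjusted p = 0.0145), 1.29 above the median of all peaks. It was no longer called after quantile normalization (0.68, adjusted p = 0.382), in the thinned reads (2.28, adjusted p = 0.0625), without G12D library 2 (2.29, adjusted p = 0.0585) or without G12D library 3 (2.33, adjusted p = 0.0553), and its lowest adjusted p was 0.00567.

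Upstream in the Foxo3 3′ UTR, peak 2 (chr10:42186127-42186179), with no seed match listed, had 5.45, 13.8 and 32.3 normalized reads in G12D libraries, against 31.8, 26.1 and 29.6 in WT libraries. The WT values were close together and the G12D values spread around and below them (log2 fold change -1.03, limma adjusted p = 0.15). It was called lower with edgeR (-1.33, adjusted p = 0.0333, the lowest over the alternatives, the highest being 0.66). Peak 5 (chr10:42185890-42185953), with a 7-mer for miR-200/miR-429, had 57 reads in G12D and 0 in WT libraries, at least 4.23-fold higher against a floor of 3 reads over the WT group, and was below the filter. Peaks 3 and 4, also below the filter, held 38 and 49 reads in G12D and 2 and 3 in WT libraries, and the groups overlapped for both. Peak 6 (chr10:42185545-42185613) had 24, 5.36 and 3.59 in G12D libraries, against 0, 0 and 6.44 in WT libraries, so its mean rested on G12D library 1 (2.21, limma adjusted p = 0.0605). Its adjusted p ran from 0.0117, without WT library 3, to 0.761 over the alternatives. The exon peak 1 (chr10:42196514-42196585), with an 8-mer for miR-29, changed by -0.59 on the log2 scale (limma adjusted p = 0.377). The sum over Foxo3 was 104.5 ± 26.4 in G12D and 74.3 ± 24.4 in WT libraries (SD, n = 3 each; log2 fold change 0.51 ± 0.35, SE, limma adjusted p = 0.237), and was -0.13 after quantile normalization.

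Ddit4, the stress-induced inhibitor of MTOR complex 1, had 4 peaks within its 3′ UTR on the minus strand of chromosome 10, the last of them 118 bases from the end of the RefSeq gene. The 2 farther from the stop codon were called higher in G12D libraries and the 2 nearer to it were not called. Peak 3 (chr10:59949986-59950054), with an 8-mer for miR-22-3p, had 55.6, 130.4 and 62.5 normalized reads in G12D libraries, against 8.49, 0 and 12.9 in WT libraries. The lowest G12D library was far above the highest WT library. The log2 fold change was 3.94 ± 0.84 (SE, limma adjusted p = 0.00284), 2.88 above the median of all peaks, and it was called in all 18 alternatives, with values between 2.38 and 4.66. Peak 4 (chr10:59949793-59949909), with a 7-mer for miR-27, had 30.5, 39.8 and 38.1 normalized reads in G12D libraries, against 8.49, 8.69 and 15.5 in WT libraries, again without overlap. It was called higher (1.68 ± 0.44, SE, limma adjusted p = 0.00887), 0.63 above the median of all peaks. That call was lost with edgeR (1.13, adjusted p = 0.0783), in the thinned reads (1.31, adjusted p = 0.0689), without G12D library 2 (1.61, adjusted p = 0.0501) and without both libraries numbered 2 (1.49, adjusted p = 0.0597), and its lowest adjusted p over the alternatives was 0.00442.

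Ddit4 peak 1 (chr10:59950330-59950431), with a 7-mer for miR-328, had 28.4, 32.8 and 31.6 normalized reads in G12D libraries, against 21.2, 26.1 and 30.9 in WT libraries (log2 fold change 0.25 ± 0.38, SE, limma adjusted p = 0.599). Its sign was negative with edgeR (-0.30) and DESeq2 (-0.11). Peak 2 (chr10:59950164-59950217), with a 7-mer for miR-22-3p, had 56.7, 28.1 and 26.6 in G12D libraries, against 25.5, 8.69 and 23.2 in WT libraries (0.97 ± 0.51, SE, limma adjusted p = 0.133). The G12D values were all above the WT values there, but the difference was not called. The peaks with the miR-22-3p 7-mer (peak 2) and 8-mer (peak 3) are neighbours. The sum over Ddit4 was 187 ± 38.7 in G12D and 63.2 ± 19.5 in WT libraries (SD, n = 3 each; log2 fold change 1.58 ± 0.32, SE, limma adjusted p = 0.00220), and was called in all 18 alternatives.

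Rps6kb1, the S6 kinase gene downstream of MTOR complex 1, had 1 peak, in its 3′ UTR (chr11:86502369-86502488, minus strand). It lists an 8-mer for miR-200/miR-429 and a 7-mer for miR-146. It had 21.8, 21.5 and 8.62 normalized reads in G12D libraries, against 0, 0 and 0 in WT libraries, or 136 reads against none. Against a floor of 3 reads over the WT group it was at least 10.1-fold higher. The limma adjusted p was 0.000402, and the peak was called in all 17 alternatives that tested it. With a WT mean of 0 the peak passed the filter only through the G12D libraries. The p-value and the alternatives are therefore no support apart from the counts. Floors and counting intervals pool the 3 libraries of a group and cover counting error only, not the spread between libraries.

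**Figure D3:**
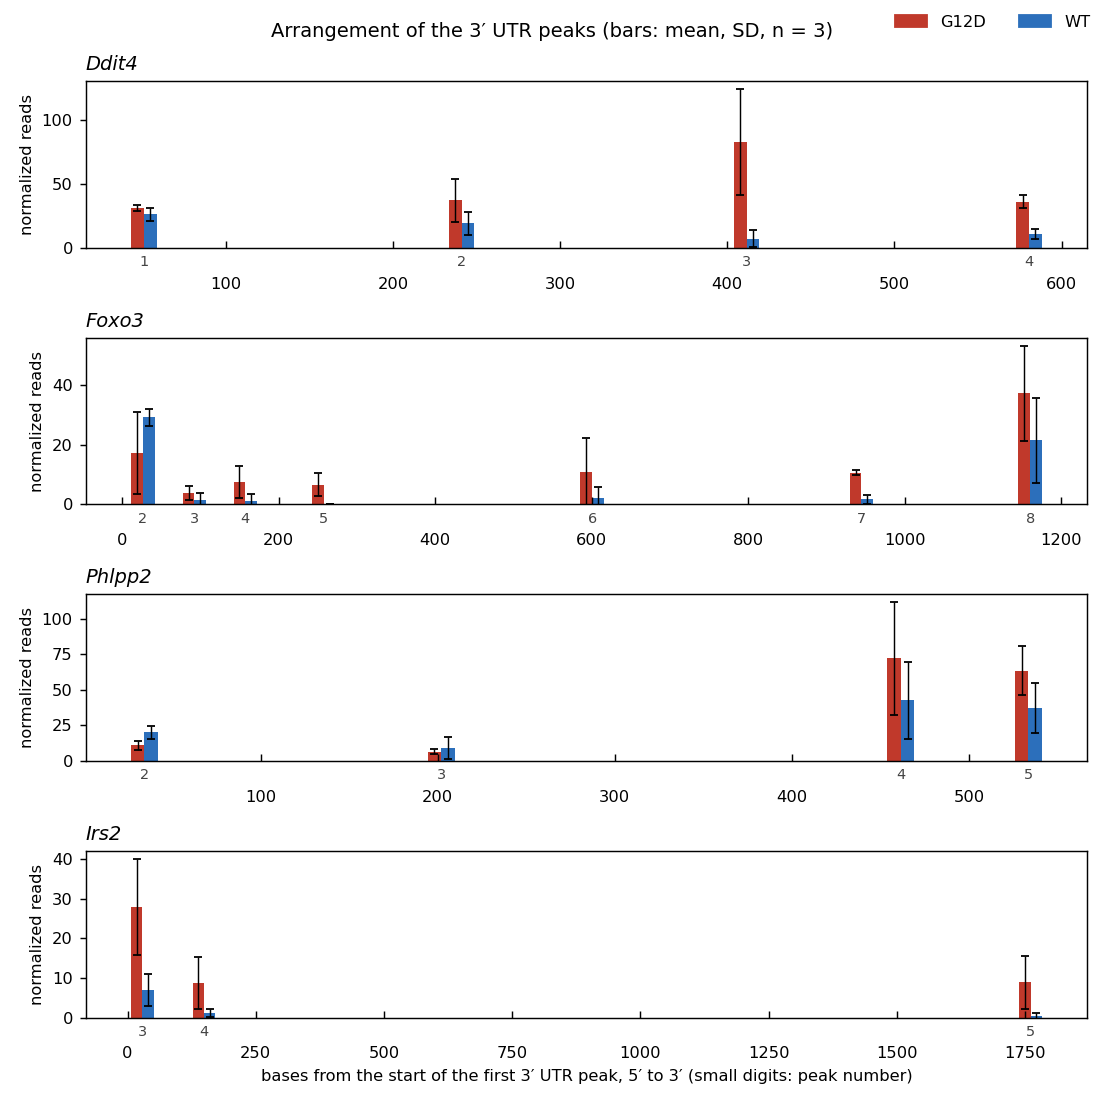
Mean normalized reads (y axis, linear; bars with SD, n = 3, lower ends cut at 0) of the 3′ UTR peaks of Ddit4, Foxo3, Phlpp2 and Irs2 by distance in bases from the start of the gene's first 3′ UTR peak, 5′ to 3′; red is G12D and blue is WT. In Ddit4 the tallest red bar is peak 3 (82.8 normalized reads, against 7.13 in WT), while peak 1 is alike in both (30.9 against 26.1).

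Counting each gene once, by the sum of its peaks, 4 of the 7 genes were called higher in G12D libraries (Irs2, Insr, Ddit4 and Rps6kb1) and 1 lower (Pik3r1). Insr (15.8 ± 0.52 in G12D and 4.12 ± 4.25 in WT libraries) and Rps6kb1 (17.3 ± 7.52 in G12D and 0 in WT libraries) had WT means under the filter's 5 and entered through the G12D libraries. Their p-values are therefore no support apart from the counts. Over all 2245 gene sums tested 35.8% were called higher and 14.2% lower, 50% in all, with a median log2 fold change of 0.81. In those same 5 genes the groups did not overlap, beside 43% of all gene sums wholly above and 16.9% wholly below. Insr had 15.3, 16.3 and 15.8 normalized reads in G12D libraries, against 8.49, 0 and 3.87 in WT libraries (2.23 ± 0.79, SE, limma adjusted p = 0.0354), a call lost in 9 of 17 alternatives, among them edgeR (1.41, adjusted p = 0.113), the fits that left out any G12D library (adjusted p up to 0.112) and the fit without WT library 2 (1.30, adjusted p = 0.0614); its adjusted p ran from 0.00991 to 0.913. Without G12D library 2, and likewise without G12D library 3, 3 of the 7 sums were called. Relative to the median of all gene sums the values were -2.68 for Pik3r1, -0.45 for Phlpp2, -0.30 for Foxo3, 0.77 for Ddit4, 0.87 for Irs2 and 1.42 for Insr. Rps6kb1 has no such value, since its fitted fold change against 0 reads depends on the pseudocount.

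The next comparison set each peak against the other peaks of its own gene in the same library, so that a factor shared by a gene's peaks largely cancels, though not at low values, where the pseudocount counts, nor under quantile normalization. Of 20 member peaks that could be tested 2 had a higher share of their gene in G12D libraries and 3 a lower one, beside 17.7% and 15.8%, or 33.6% in all, of 2992 peaks tested this way. Without G12D library 1 there were 2 calls and without G12D library 2 there was 1. Peaks of 1 gene are not independent here, since a gain of 1 is a loss of the others.

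In Ddit4 peak 3 held a larger and peak 1 a smaller share of the gene's reads in G12D libraries. The share of peak 4, the farthest downstream, overlapped between the groups (19.7 ± 3.74% in G12D and 17.4 ± 3.54% in WT libraries, SD, n = 3 each). Peak 3 made up 32.5%, 56.4% and 39.4% of the gene's reads in G12D libraries, against 13.3%, 0% and 15.6% in WT libraries. Peak 1 made up 16.6%, 14.2% and 19.9% in G12D libraries, against 33.3%, 60.0% and 37.5% in WT libraries. The groups did not overlap for either peak. The balance of peak 3 rose by 3.03 ± 0.81 on the log2 scale (SE, limma adjusted p = 0.0151) and that of peak 1 fell by 1.90 ± 0.54 (adjusted p = 0.0190), while peaks 2 and 4 were not called. Both calls were lost without G12D library 2 (adjusted p = 0.0902 for peak 3 and 0.0843 for peak 1), in the thinned reads (0.0590 and 0.109) and without both libraries numbered 2 (0.0717 and 0.124), and that of peak 1 also without G12D library 1 (0.0618). Their lowest adjusted p-values over the alternatives were 0.00217 for peak 3 and 0.00682 for peak 1.

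In Pik3r1 peak 1 made up 75.4%, 82.0% and 85.2% of the gene's reads in G12D libraries, against 95.8%, 96.2% and 94.9% in WT libraries. Its balance fell by 2.30 ± 0.38 (SE, limma adjusted p = 0.00119), a call lost only after quantile normalization among 15 alternatives (-0.84, adjusted p = 0.13; lowest 0.000333). The 3′ UTR peak 3 made up 15.8%, 8.39% and 6.09% in G12D libraries, against 1.70%, 1.28% and 0% in WT libraries, and its balance rose by 3.64 ± 0.95 (SE, limma adjusted p = 0.0132). It was called in all 11 alternatives that tested it. Peak 3 held 56 reads in G12D and 3 in WT libraries. Its WT mean of 2.38 was under the filter's 5, so it entered through the G12D libraries. The p-values of its balance are therefore no support apart from the counts. Because peak 1 held most of the gene's reads, the rise of peak 3 in part mirrors the fall of peak 1. In Foxo3 peak 2 made up 7.35%, 11.8% and 26.5% in G12D libraries, against 37.5%, 56.2% and 32.4% in WT libraries. Its balance fell by 2.10 ± 0.65 (SE, limma adjusted p = 0.0280), a call lost in 5 of 16 alternatives (without G12D library 1, G12D library 2, WT library 2 or both libraries numbered 2, and in the thinned reads), with adjusted p-values from 0.0125 to 0.196. In Irs2 and Phlpp2 limma called 0 balances, with 0 and 1 at an unadjusted p under 0.05. The share of Irs2 peak 3 overlapped between the groups at 47.0 ± 8.96% in G12D and 44.3 ± 31.2% in WT libraries (SD, n = 3 each).

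**Figure D4:**
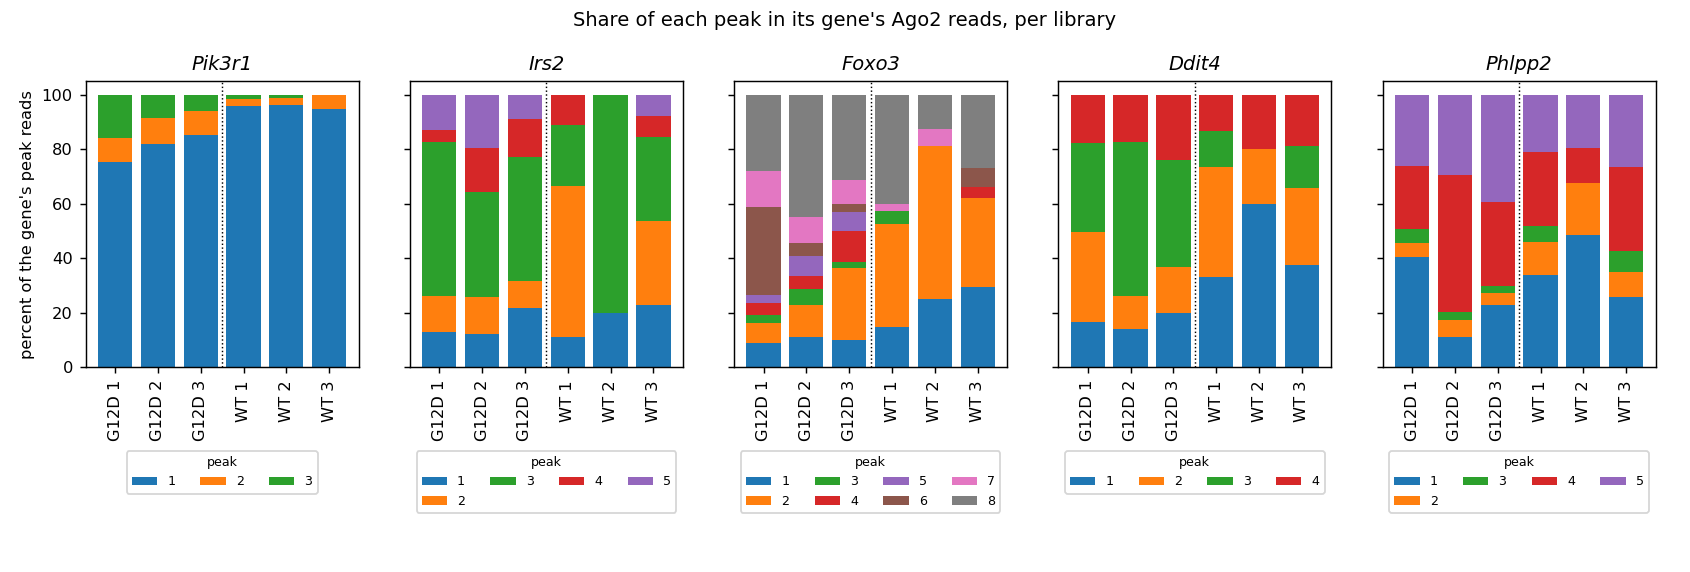
Percent of a gene's Ago2 reads that fell in each of its peaks (y axis), per pulldown library, for the 5 genes with more than 2 peaks; colours are peak numbers 5′ to 3′, G12D libraries stand left of the dotted line and WT libraries right of it. The green segment of Ddit4 (peak 3) is larger in each G12D library (32.5% to 56.4%) than in each WT library (0% to 15.6%), and the blue segment of Pik3r1 (peak 1) is smaller.

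Per 100 bases of peak, the levels ran in a different order in the genotypes. In G12D libraries the order was Phlpp2 (63.6 ± 9.57 normalized reads per 100 bases), Ddit4 (54.7 ± 11.3), Pik3r1 (46.9 ± 10.5), Foxo3 (23.7 ± 5.99), Irs2 (19.9 ± 10.4), Rps6kb1 (14.4 ± 6.26) and Insr (13.5 ± 0.44; SD, n = 3). Of these neighbours, only Pik3r1 and Foxo3 did not overlap between their libraries. In WT libraries the order was Pik3r1 (179 ± 71.4), Phlpp2 (52.3 ± 20.8), Ddit4 (18.5 ± 5.70), Foxo3 (16.8 ± 5.53), Irs2 (5.26 ± 0.72), Insr (3.52 ± 3.63) and Rps6kb1 (0). There the libraries of Pik3r1 and Phlpp2, of Phlpp2 and Ddit4, and of Foxo3 and Irs2 did not overlap, and the other neighbours did.

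By the shape of the gene sum over the 6 pulldown libraries, the genes most like each member were found by the root mean square distance of centred log2(sum + 1) values, among about 1151 genes with a mean of at least 20. Nearest to Phlpp2 was Shisa5 (0.059), to Foxo3 Mtm1 (0.131), to Pik3r1 Rbm22 (0.145) and Nipbl (0.155), and to Insr Ralgapa2 (0.175). Nearest to Ddit4 were Slc19a2 (0.191), Rfk (0.197) and Sct (0.198), and to Irs2 RP24-221F4.2 (0.231). For Rps6kb1 the nearest of the genes compared was Ick, at 0.327. Rps6kb1 and Insr themselves had means under 20, so genes of their level were not among those compared.

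Of 60 other genes of the pathway, listed in 6 roles, 13 had a merged peak and 12 a tested one, with 24 peaks in all. Of these 24 peaks 4 were called higher (16.7%) and 1 lower (4.17%), beside 36.2% and 12.7% of all peaks, and the median log2 fold change was 0.14. In both directions together edgeR called 10 of them, beside 1988 of 4438 peaks, and DESeq2 8, beside 1901 of 4438. Without WT library 2 limma called 8 pathway peaks, beside 2494 of 4794 peaks. Of 9 listed PI3K subunits 0 had a merged peak, beside the 3 peaks of Pik3r1.

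Among these other pathway genes Sgk1, a kinase related to AKT, held the lower call, in 1 of its 6 merged peaks. Its 3′ UTR peak at chr10:21998923-21998985, with an 8-mer for miR-19, had 7.63, 6.19 and 6.46 normalized reads in G12D libraries, against 42.5, 43.5 and 40.0 in WT libraries (log2 fold change -2.47 ± 0.43, SE, limma adjusted p = 0.000970). The other Sgk1 peaks were not called, with log2 fold changes from -1.85 to 1.74. Sesn2, an inhibitor of MTOR complex 1 as Ddit4 is, had a 3′ UTR peak (chr4:132492972-132493037) at 21.4 ± 5.30 in G12D and 2.10 ± 0.80 in WT libraries (limma adjusted p = 0.00254), from 176 reads in G12D and 3 in WT, a rate ratio of 13.1 with a 95% counting interval of 4.39 to 63.9. The other Sesn2 peaks, of which 1 was higher in level, were not called (log2 fold changes 0.28 and 0.68). Pdcd4, whose protein is degraded after S6 kinase phosphorylates it, had an exon peak (chr19:53926245-53926294) at 18.8 ± 12.0 in G12D and 2.12 ± 3.68 in WT libraries (limma adjusted p = 0.0150). It rested on 153 reads in G12D and 3 in WT, a rate ratio of 11.4 with an interval of 3.81 to 55.6. Its groups overlapped, at 5.45, 22.3 and 28.7 in G12D libraries, against 6.37, 0 and 0 in WT libraries. These Sesn2 and Pdcd4 peaks had WT means under the filter's 5 and entered only through the G12D libraries. Their p-values are therefore no support apart from the counts. Among receptors and adaptors the 2 tested peaks, both of Igf2r, missed the threshold, with limma adjusted p-values of 0.508 and 0.0511.

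In the miRNA libraries, of 46 miRNAs in families with a match of at least 7 bases 44 were tested, 5 were called higher (11.4%) and 1 lower (2.27%), beside 9.06% and 6.69%, or 15.7% in all, of 254 miRNAs tested. Without WT library 1 the calls numbered 11. Over all miRNAs the deposited scale gave 23 higher and 17 lower calls (57.5% higher, median log2 fold change 0.11), the same total per library 6 and 33 (15.4%, median -0.26), and edgeR 11 and 26 (29.7%, median -0.13). The miR-200/miR-429 family was the most abundant of those matched, at 12.1% of miRNA reads, and is listed for Rps6kb1, Pik3r1 and Foxo3. It summed to 53694, 63425 and 57753 normalized reads in G12D libraries, against 61364, 39705 and 37536 in WT libraries, with WT library 1 within the G12D range. miR-200c-3p was not called (0.25, limma adjusted p = 0.354), and miR-200b-3p was called higher (0.56 ± 0.19, SE, adjusted p = 0.0364) but lost in 12 of 18 alternatives, among them edgeR (0.33, adjusted p = 0.241) and the fits without G12D library 2 or 3 or WT library 2 or 3 (adjusted p from 0.101 to 0.146), within a range of 0.000731 to 0.815 over all of them.

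For Ddit4, miR-27a-3p had 28847, 26554 and 25426 normalized reads in G12D libraries, against 10704, 18201 and 10046 in WT libraries, and was called higher (1.10 ± 0.19, SE, limma adjusted p = 5.57e-05). The call was lost without the variance trend (adjusted p = 0.0585, the highest of 18 alternatives, the lowest being 6.37e-10). miR-27b-3p was not called (0.50, adjusted p = 0.0657). miR-22-3p, whose 8-mer lies in Ddit4 peak 3, had 6218, 6957 and 6052 in G12D libraries, against 5359, 3556 and 4265 in WT libraries. The groups did not overlap, but the difference missed the threshold (0.56 ± 0.21, SE, limma adjusted p = 0.0585).

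For Rps6kb1, miR-146b-5p had 2362, 1167 and 1312 normalized reads in G12D libraries, against 3488, 3749 and 3782 in WT libraries, and was the miRNA of a matched family called lower (-1.26 ± 0.25, SE, limma adjusted p = 0.000537; called in all 18 alternatives). miR-146a-5p was not called (-0.75, adjusted p = 0.0526). For Insr, Irs2 and Phlpp2, let-7b-5p (-0.0028) and let-7i-5p (0.30, limma adjusted p = 0.399) were not called, nor was any other tested miRNA of the let-7 family. Of the miR-141 family, matched in Pik3r1 and Phlpp2, miR-141-3p (0.49, limma adjusted p = 0.0829) and miR-200a-3p (0.33, adjusted p = 0.336) were not called.

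For Irs2, miR-205-5p had 4475, 2670 and 3562 normalized reads in G12D libraries, against 1353, 1953 and 1455 in WT libraries, and was called higher in all 18 alternatives (1.16 ± 0.25, SE, limma adjusted p = 0.00123). miR-210-3p (0.86, adjusted p = 0.00321) and miR-26a-5p (0.61, adjusted p = 0.0143) were called higher as well, and were lost in 3 and 8 of 18 alternatives. For miR-26a-5p these included the fits without G12D library 2 (adjusted p = 0.0801) and without WT library 3 (0.0731), within a range of 0.00407 to 0.831. The miR-205 and miR-26 matches lie in Irs2 peak 2, which was not called, and the miR-210 match in Irs2 peak 4, which was below the filter. miR-10a-5p (0.59, limma adjusted p = 0.0914), miR-16-5p (0.073), miR-15a-5p (0.34), miR-103-3p (0.58), miR-107-3p (0.047), miR-29a-3p (0.37), miR-29b-3p (0.46), miR-181a-5p (0.0078), miR-181b-5p (-0.36), miR-484 (-0.041), miR-423-3p (0.86, adjusted p = 0.0678), miR-378a-3p (0.28), miR-328-3p (0.20), miR-151-3p (-0.12) and miR-194-2-3p (0.26) were not called. Of the families listed by a 6-mer alone, miR-21a-5p (0.73, limma adjusted p = 0.00159) and miR-652-3p (0.77, adjusted p = 0.0283) were called higher, and both are listed for Phlpp2 peak 2.

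**Figure D5:**
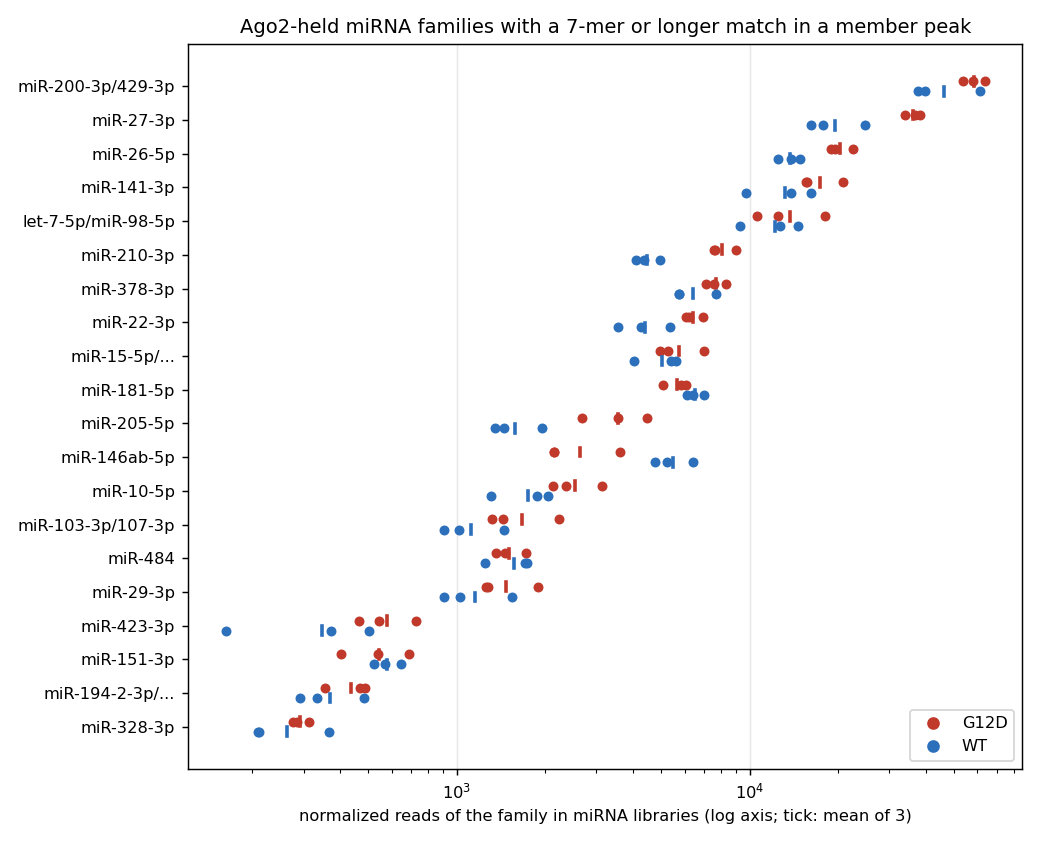
Normalized reads (log x axis) in the miRNA libraries of each seed family with a match of at least 7 bases in a member peak; red points are the 3 G12D libraries, blue points the 3 WT libraries, and ticks their means. The groups stand apart for miR-27, miR-26, miR-210, miR-22, miR-205 and miR-10, with G12D higher, and for miR-181 and miR-146, with G12D lower. No tested miRNA of the miR-22, miR-10 or miR-181 families was called. How often groups stand apart over all miRNAs was not counted.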

How the data were processed

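Per the labels' protocols, the minced tissue received 3 UV exposures of 400 mJ/cm2. STAR 2.5.2b and DESeq2, with the builds mm10 and GRCm38, are named in the submitters' processing notes; how peaks were called and counted is not given in the sources used here. The deposited normalized values are a signal, reads per merged peak or mature miRNA divided by 1 factor per library, and dividing by the step of each library gave whole reads for 100% of them (tolerance 0.01). Per the file headers, the deposited differential tables hold log2 fold changes, their standard errors, p-values and a test score by the authors. The score in the authors' peak lists was not used, only which list held a peak. Annotation class, gene and seed matches are the authors', and gene ends come from RefSeq on GRCm38.p6.

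Tests used limma 3.58.1 in R 4.3.3, with a pseudocount of 1 and a variance trend, on peaks and gene sums whose mean reached 5 and miRNAs whose mean reached 10 normalized reads. The pseudocount shrinks fold changes of low peaks. The within-gene balance is log2(peak + 1) minus log2(other peaks of the gene + 1). Alternatives covered the pseudocount (0.5, 5), the filter (none, 20), scaling, the replicate number as a block, the trend, each library left out, thinning to the shallowest library (54401 reads), edgeR 4.0.16 and DESeq2 1.42.0 on the recovered reads. Leaving out both libraries numbered 2 was added after seeing the data. The scripts were tested on simulated data. Values per library were printed for each gene's highest peak, for called peaks whose groups did not overlap, and for further peaks chosen after their values were seen. Other pathway genes were named where called, and up to 2 miRNAs per family of a tested peak by highest mean. A further result of the pathway list is not reported here. The members and lists were chosen with earlier results of these data known. RefSeq matched 408 of 459 miRNAs by name.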

Additional observations from a re-analysis of the deposited data

How the results depend on the processing

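Of the 7 called member peaks 0 changed sign under any alternative and 4 lost the call under at least 1. Counts of member peaks called higher (6), called lower (1), gene sums (5), balances (5), other pathway peaks (5), all peaks (2170) and matched miRNAs (6) moved by over 1.5 times as follows. With no filter 8 pathway peaks were called, and with a mean of at least 20 there were 2 member peaks higher, 3 gene sums, 3 balances, 2 pathway peaks and 790 peaks in all, fewer peaks being tested. With the same total per library 10 member peaks were higher. After quantile normalization 3 were higher and 4 lower, with 3 gene sums and 9 pathway peaks. In the thinned reads 2 balances were called. edgeR called 3 member peaks lower and 10 pathway peaks, DESeq2 called 8 pathway peaks, and without the variance trend 2 miRNAs were called. Without both libraries numbered 2 there were 3 gene sums, 1 balance and 8 pathway peaks. Leaving out 1 library gave 2 to 8 member peaks higher, 1 lower, 3 to 5 gene sums, 1 to 6 balances, 4 to 8 pathway peaks, 1308 to 2494 peaks in all and 4 to 11 miRNAs. The lowest counts of member peaks, balances and all peaks came without G12D library 2 and the highest miRNA count without WT library 1. The cause was not tested.

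Among uncalled values the sign turned under at least 1 alternative for 9 of 15 member peaks, 2 of 2 gene sums, 6 of 15 balances and 23 of 38 miRNAs. The log2 fold changes of the peaks and sums were these. After quantile normalization Irs2 peak 1 was -0.000197, Irs2 peak 2 -0.64, Phlpp2 peak 3 -1.10 and the Foxo3 sum -0.13. Without both libraries numbered 2 Irs2 peak 2 was -0.46, Foxo3 peak 8 -0.035, Phlpp2 peak 3 -0.92, Phlpp2 peak 4 -0.25 and the Phlpp2 sum -0.13. With edgeR and DESeq2 Ddit4 peak 1 was -0.30 and -0.11, Phlpp2 peak 3 -1.12 and -0.88, and the Phlpp2 sum -0.16 and -0.10. Phlpp2 peak 3 was -0.80 and Phlpp2 peak 2 0.10 in the thinned reads, and Phlpp2 peak 3 -0.048 with a pseudocount of 5. With 1 library left out, values ranged from -0.70 to 0.21 for Pik3r1 peak 2, -0.12 to 1.65 for Irs2 peak 2, -0.64 to 0.057 for Phlpp2 peak 1, -0.95 to 1.02 for Phlpp2 peak 3 and -0.021 to 0.59 for the Phlpp2 sum.

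The replicate numbers did not pair the libraries, since same-numbered pulldown libraries correlated at 0.041, -0.036 and -0.0076 after removal of the group means, and miRNA libraries at -0.00031, -0.42 and -0.32. With the replicate block 7 member peaks were higher and 1 lower, and 5 gene sums, 5 balances, 6 pathway peaks, 5 miRNAs and 2220 peaks in all were called. Limits include 3 libraries per group, the scaling between libraries, WT peaks that rest on 0 to 3 reads, and the inputs not analysed here.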
